A study of Mus musculus with 24 samples.

Results

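The 7 endosomal Toll-like receptors of the mouse, Tlr3, Tlr7, Tlr8, Tlr9, Tlr11, Tlr12 and Tlr13, and their transport protein Unc93b1 were followed across all 24 arrays of a study of dendritic cells grown from mouse bone marrow (BMDCs). Members were taken by symbol: probes whose accession maps to one of these 8 genes were read on every array, out of 12649 named genes and 20210 features tested. Of the 8 members 7 were tested, and Tlr8 was not well above background on any array and entered no comparison. Bone marrow cells were grown for 9 days with 100 ng/ml human Flt3-ligand, and were then given 150 nM of the CpG-B oligonucleotide ODN 1668, a ligand of Tlr9, for 6 h or left unstimulated. There were 8 groups of 3 arrays: Lyn/Irf5-DKO (DKO), Irf5-KO, Lyn-KO and WT cells with CpG-B, and the same 4 genotypes unstimulated. All mice had the C57BL/6 background and all cultures received Flt3-ligand. The labels call the 3 arrays of a group biological replicates without saying whether each came from a separate mouse, so a p-value here measures the spread between these arrays.

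Endosomal Toll-like receptors recognise nucleic acids or microbial proteins inside endosomes and lysosomes. Tlr3 binds double-stranded RNA, Tlr7 binds single-stranded RNA, Tlr9 binds DNA with unmethylated CpG motifs and mouse Tlr13 binds bacterial ribosomal RNA, while mouse Tlr11 and Tlr12 recognise profilin of protozoan parasites. Unc93b1 is a membrane protein that carries these receptors from the endoplasmic reticulum to endosomes. All of these receptors but Tlr3 signal through the adaptor Myd88, and Tlr3 signals through Ticam1 (TRIF). Irf5 is a transcription factor activated downstream of Myd88, and Lyn is a kinase of the Src family known as a negative regulator of Irf5. The comparisons with DKO cells ask whether an effect of losing Lyn depends on Irf5.

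Each level is the log2 signal minus the 75th percentile of its own array, so 0 is that percentile and a difference of 1 is a 2-fold difference. Levels are compared between arrays for the same probe only. Between 41.0% and 53.8% of the spots on an array were well above background, replicate arrays correlated at r = 0.991 to 0.996, and the median residual SD of a feature was 0.134 (log2). Slide and replicate number coincided, and all 8 groups were on each of the 3 slides. Lyn, the targeted kinase, was lower in Lyn-KO cells than in WT cells, with a log2 difference of -2.44 ± 0.09 (SE, adjusted p = 5.8e-12) with CpG-B and of -1.82 ± 0.09 (adjusted p = 8.4e-10) unstimulated, and its probe stayed well above background on all arrays. The Irf5 probe was higher in Irf5-KO than in WT cells with CpG-B (0.64 ± 0.09, adjusted p = 2.8e-05) and differed by -0.30 ± 0.09 unstimulated (adjusted p = 0.161). No label or file used here says if that probe lies within the deletion, so it checks nothing, and "Irf5-KO" and "DKO" stand for the arrays labelled so.

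Promoter sequences are shown for Tlr12 and Tlr13, whose levels with CpG-B depended most on the genotype, and for Tlr11, which was above background only in unstimulated cells. With CpG-B, Tlr12 was lower and Tlr13 higher in Irf5-KO and DKO than in WT cells. Of the 8 members 6 matched the RefSeq promoter table (GRCm38.p6); Tlr7 and Unc93b1 did not. Each window holds the 250 bases before and the 50 bases after the start of the gene, 5′ to 3′ on the strand of the gene. Capitals mark matches on either strand to GAAANNGAAA (core of the interferon-stimulated response element), GGGANNTTCC (kappaB core), GGAANNGAAA (core of the composite element of Ets and interferon regulatory factors) or GAGGAA (PU.1 core).
Tlr12, chr4:128618570-128618869, minus strand: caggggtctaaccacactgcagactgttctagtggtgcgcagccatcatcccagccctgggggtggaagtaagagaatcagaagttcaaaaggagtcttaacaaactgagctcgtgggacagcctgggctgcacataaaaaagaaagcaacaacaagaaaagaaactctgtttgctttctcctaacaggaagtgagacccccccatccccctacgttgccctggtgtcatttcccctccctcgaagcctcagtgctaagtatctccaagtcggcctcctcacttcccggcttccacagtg
Tlr13, chrX:106143025-106143324, plus strand: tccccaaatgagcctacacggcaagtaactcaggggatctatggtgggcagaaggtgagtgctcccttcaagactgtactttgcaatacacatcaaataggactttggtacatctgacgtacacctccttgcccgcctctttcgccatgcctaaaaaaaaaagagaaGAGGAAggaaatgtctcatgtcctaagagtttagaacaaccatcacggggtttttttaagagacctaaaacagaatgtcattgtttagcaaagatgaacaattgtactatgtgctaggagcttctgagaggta
Tlr11, chr14:50357664-50357963, plus strand: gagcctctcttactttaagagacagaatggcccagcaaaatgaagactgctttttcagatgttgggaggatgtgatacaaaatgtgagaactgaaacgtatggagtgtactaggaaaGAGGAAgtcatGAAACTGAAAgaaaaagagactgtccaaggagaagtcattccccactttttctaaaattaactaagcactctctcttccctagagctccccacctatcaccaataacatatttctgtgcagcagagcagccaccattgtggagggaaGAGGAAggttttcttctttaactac
The Tlr12 window held no match to any of the 4 motifs. The Tlr13 window held GAGGAA at -83 to -78 relative to the start. The Tlr11 window held GAAANNGAAA at -122 to -113 and GAGGAA at -133 to -128 and at 26 to 31; these matches do not overlap. Among the windows not printed, that of Tlr3 held GGGANNTTCC at -211 to -202, that of Tlr9 held GAGGAA at -112 to -107 and on the other strand at 13 to 18, and that of Tlr8 held GAGGAA on the other strand at -77 to -72. Of 32851 promoter windows of the same length, 3.44% held GAAANNGAAA, 1.47% held GGGANNTTCC, 2.72% held GGAANNGAAA and 28.3% held GAGGAA. A match describes the letters of the window and no binding was measured.

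CpG-B moved all 7 tested members in WT cells, in both directions. Tlr7 and Tlr9 rose, and Tlr3, Tlr11, Tlr12, Tlr13 and Unc93b1 fell (limma, adjusted over all features). These were 7 of 7 tested members in WT cells, where 68.5% of all 20210 features were called. In Irf5-KO cells 7 of 7 were called (66.8% of all features), in DKO cells 6 (70.5%) and in Lyn-KO cells 5 (68.9%), so that a called response was the usual case for any gene on these arrays. The median response of the 7 members was -1.39 in DKO, -1.37 in Irf5-KO, -0.01 in Lyn-KO cells and -1.17 in WT cells, against medians of all features of 0.02, -0.02, -0.01 and -0.03 in the same genotypes. Each member median is the value of a single gene, Tlr13 in DKO and Irf5-KO cells and Tlr12 in Lyn-KO and WT cells. It does not describe the members as a set, since their responses ran in both directions.

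**Figure D1:**
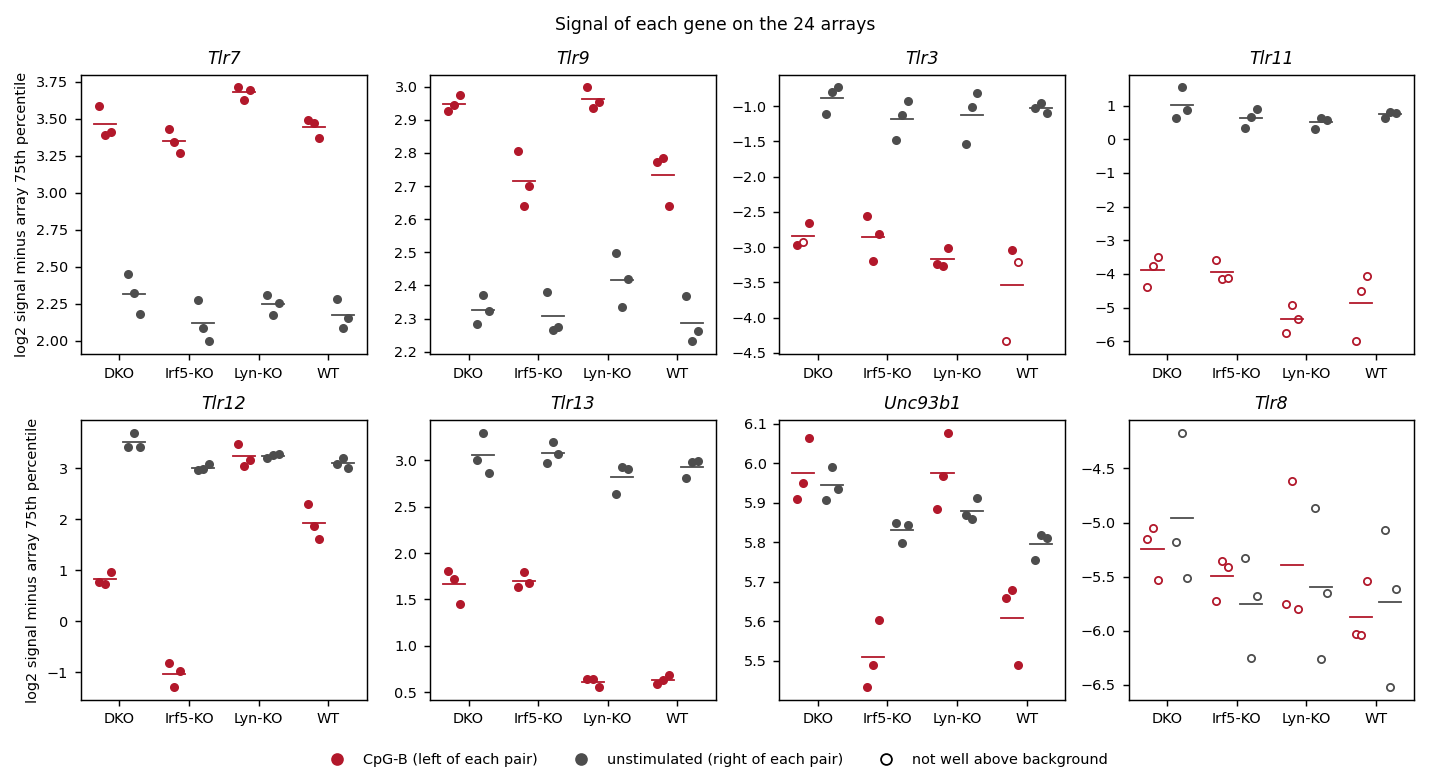
Level of each of the 8 members on every array (y axis, log2 signal minus the 75th percentile of the array) in DKO, Irf5-KO, Lyn-KO and WT cells, with CpG-B on the left and unstimulated on the right of each pair. Points are arrays, bars are group means and open circles are spots not well above background; Tlr12 with CpG-B lay between 3.05 and 3.49 in Lyn-KO cells and between -1.29 and -0.81 in Irf5-KO cells.

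Tlr7, the sensor of single-stranded RNA, rose in every genotype. Its level was 3.59, 3.39 and 3.41 in DKO cells with CpG-B, against 2.45, 2.33 and 2.18 unstimulated. It was 3.43, 3.34 and 3.27 in Irf5-KO cells with CpG-B, against 2.28, 2.09 and 2.00 unstimulated. No array with CpG-B overlapped an unstimulated array in these or the other two genotypes. Lyn-KO cells had 3.71, 3.63 and 3.70 with CpG-B, against 2.31, 2.17 and 2.26 unstimulated, and WT cells had 3.49, 3.47 and 3.37 with CpG-B, against 2.28, 2.09 and 2.15 unstimulated. The log2 change was 1.14 ± 0.08 in DKO, 1.23 ± 0.08 in Irf5-KO, 1.43 ± 0.08 in Lyn-KO cells and 1.27 ± 0.08 in WT cells (adjusted p = 2.5e-10 in DKO and 5.3e-11 in WT). A second Tlr7 probe gave rises of 1.37, 1.44, 1.55 and 1.44 in the same genotypes.

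Tlr9, the receptor for the stimulus itself, rose by less. With CpG-B it stood at 2.93, 2.94 and 2.97 in DKO cells, against 2.28, 2.37 and 2.32 unstimulated. In WT cells it stood at 2.77, 2.79 and 2.64 with CpG-B, against 2.37, 2.23 and 2.26 unstimulated. Irf5-KO cells (2.81, 2.64 and 2.70 with CpG-B, against 2.38, 2.27 and 2.27 unstimulated) and Lyn-KO cells (3.00, 2.93 and 2.95, against 2.50, 2.33 and 2.42) showed the same separation. The rise was 1.54-fold in DKO (0.62 ± 0.06, adjusted p = 1.3e-08), 1.33-fold in Irf5-KO, 1.46-fold in Lyn-KO cells and 1.36-fold in WT cells (0.44 ± 0.06, adjusted p = 1.4e-06). With normexp background correction and quantile normalisation the WT rise was 0.24 (adjusted p = 0.0194).

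Tlr3, the sensor of double-stranded RNA, fell in all 4 genotypes to a level near the detection limit. Its level with CpG-B was -2.96, -2.93 and -2.65 in DKO cells, against -1.11, -0.80 and -0.73 unstimulated. It was -4.34, -3.04 and -3.22 in WT cells with CpG-B, against -1.03, -0.96 and -1.10 unstimulated. Only 1 of the 3 WT arrays and 2 of the 3 DKO arrays with CpG-B measured it above background, against all unstimulated arrays. Irf5-KO cells had -2.56, -3.20 and -2.82 with CpG-B, against -1.48, -1.13 and -0.93 unstimulated, and Lyn-KO cells had -3.23, -3.27 and -3.01, against -1.54, -1.01 and -0.81. The fall was 3.20-fold in Irf5-KO and 4.14-fold in Lyn-KO cells, where every array measured it, and no pair of groups overlapped. The fitted log2 change was -1.97 ± 0.26 in DKO (adjusted p = 1.8e-06) and -2.50 ± 0.26 in WT cells (adjusted p = 7.4e-08), sizes that rest in part on spots below background. Normexp background correction with quantile normalisation gave smaller falls, of -0.88 to -1.20 on the log2 scale, all still called. That correction adds an offset of 50 signal units, which by itself makes changes of dim probes smaller.

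Tlr11, a receptor for profilin, was measured on all 12 unstimulated arrays and on none of the 12 arrays with CpG-B. Unstimulated levels were 0.64, 1.54 and 0.88 in DKO cells, 0.33, 0.67 and 0.90 in Irf5-KO cells, 0.29, 0.64 and 0.58 in Lyn-KO cells, and 0.62, 0.81 and 0.78 in WT cells. Since a spot below background gives only a bound, folds were taken against the dimmest signal well above background on each array. By that limit the Tlr11 level with CpG-B was at least 20.1-fold lower in DKO, at least 20.3-fold lower in Irf5-KO, at least 18.0-fold lower in Lyn-KO cells and at least 23.5-fold lower in WT cells. Each bound sets the mean of the unstimulated arrays against the mean of, per array, the higher of the dimmest signal well above background and the spot's own signal. The dimmest such signal is the lowest limit that an array offers, and a higher limit would give smaller bounds. The adjusted p of the fit lay between 5.4e-11 in Lyn-KO cells and 2.2e-09 in Irf5-KO cells. These bounds hold for the processed signal only. Normexp background correction, with its offset of 50 signal units, and quantile normalisation gave fitted log2 falls of -2.68 to -3.00, smaller than the bounds and all called. No genotype comparison of Tlr11 can be made with CpG-B, because every such array was below background.

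Tlr8 read between -6.52 and -4.17 across the 24 arrays and was nowhere well above background. Human TLR8 is a sensor of single-stranded RNA. No fold is given for it.

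Tlr12, the other receptor for profilin, answered CpG-B in 3 genotypes and by very different amounts. Its level was 0.77, 0.73 and 0.98 in DKO cells with CpG-B, against 3.42, 3.69 and 3.42 unstimulated. It was -0.81, -1.29 and -0.98 in Irf5-KO cells with CpG-B, against 2.97, 2.98 and 3.09 unstimulated. These groups lay far apart, by a 6.45-fold fall in DKO (-2.69 ± 0.15, adjusted p = 6.3e-12) and a 16.5-fold fall in Irf5-KO cells (-4.04 ± 0.15, adjusted p = 1.7e-14). In Lyn-KO cells it was 3.49, 3.05 and 3.17 with CpG-B, against 3.21, 3.26 and 3.27 unstimulated. There the groups overlapped and the difference was -0.01 ± 0.15 (adjusted p = 0.949). In WT cells it was 2.30, 1.87 and 1.62 with CpG-B, against 3.08, 3.20 and 3.02 unstimulated, a 2.25-fold fall (-1.17 ± 0.15, adjusted p = 1.0e-06) with no overlap.

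Tlr13, the sensor of bacterial ribosomal RNA, fell in all 4 genotypes. Its level was 1.81, 1.72 and 1.45 in DKO cells with CpG-B, against 3.00, 3.29 and 2.87 unstimulated. It was 1.63, 1.80 and 1.68 in Irf5-KO cells with CpG-B, against 2.97, 3.19 and 3.07 unstimulated. These falls were 2.62-fold in DKO (-1.39 ± 0.11, adjusted p = 8.8e-10) and 2.59-fold in Irf5-KO cells (-1.37 ± 0.11, adjusted p = 1.2e-09). In both genotypes every unstimulated array lay above every array with CpG-B. Lyn-KO cells had 0.65, 0.64 and 0.56 with CpG-B, against 2.64, 2.93 and 2.90 unstimulated, a 4.62-fold fall (-2.21 ± 0.11, adjusted p = 9.2e-13). WT cells had 0.58, 0.63 and 0.69 with CpG-B, against 2.81, 2.98 and 2.99 unstimulated, a 4.91-fold fall (-2.29 ± 0.11, adjusted p = 5.1e-13).

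Unc93b1, the transport protein of these receptors, differed by 1.25-fold or less between cells with CpG-B and unstimulated cells of each genotype. It stood at 5.91, 5.95 and 6.07 in DKO cells with CpG-B, against 5.91, 5.99 and 5.94 unstimulated. It stood at 5.43, 5.49 and 5.60 in Irf5-KO cells with CpG-B, against 5.85, 5.80 and 5.84 unstimulated. The DKO groups overlapped (0.03 ± 0.06, adjusted p = 0.677), and the Irf5-KO groups did not (-0.32 ± 0.06, adjusted p = 0.00015). Lyn-KO cells had 5.88, 5.97 and 6.08 with CpG-B, against 5.87, 5.86 and 5.91 unstimulated (0.10 ± 0.06, adjusted p = 0.174). WT cells had 5.66, 5.68 and 5.49 with CpG-B, against 5.76, 5.82 and 5.81 unstimulated (-0.19 ± 0.06, adjusted p = 0.0121), and without WT replicate 3 with CpG-B the WT change was -0.13 (adjusted p = 0.0867). The direction in DKO and Lyn-KO cells depended on the scaling: quantile normalisation gave -0.45 (adjusted p = 3.6e-07) in DKO and -0.27 (adjusted p = 0.00016) in Lyn-KO cells. The same scaling gave larger falls of -0.70 (adjusted p = 9.3e-10) in Irf5-KO and -0.54 (adjusted p = 3.3e-08) in WT cells.

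Tlr3 and Tlr11 are also markers of type 1 conventional dendritic cells, and the markers of that cell type moved beside them. Of 12 other tested markers of this list, 3 rose and 9 fell with CpG-B in WT cells, with a median of -1.29, where 68.5% of all features were called. In DKO cells 3 rose and 6 fell (70.5% of all features called), in Irf5-KO cells 3 and 8 (66.8%), and in Lyn-KO cells 3 and 7 (68.9%). The number called in DKO cells was near the share of all features. The mean level of these 12 markers per array ranged from 1.77 to 1.94 in WT cells with CpG-B, against 2.37 to 2.47 unstimulated. The markers of type 2 conventional dendritic cells shifted further, since 1 of 11 rose and 8 fell in WT cells, with a median of -1.87, and their mean level was 1.47 to 1.67 in WT cells with CpG-B, against 3.63 to 3.74 unstimulated. In RNA of whole cultures, fewer cells of a type and less RNA per cell cannot be told apart, and the part of cell composition in the falls of Tlr3 and Tlr11 was not tested.

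**Figure D2:**
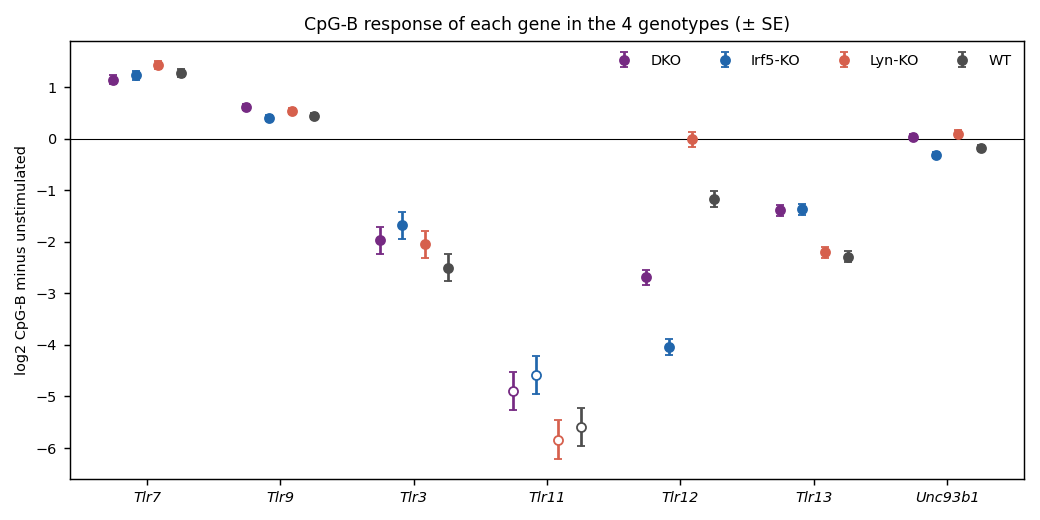
Response to CpG-B of each tested member (y axis, log2 level with CpG-B minus log2 level unstimulated, ± SE of the fit) in DKO, Irf5-KO, Lyn-KO and WT cells, 3 arrays per group. Open symbols mark Tlr11, which was not well above background with CpG-B. Tlr12 ranges from -0.01 in Lyn-KO to -4.04 in Irf5-KO cells, and Tlr7 and Tlr9 lie above 0 in all genotypes.

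Unstimulated cells of the 4 genotypes differed little in these genes. No member passed the test in any of 5 comparisons (0 of 35 values by limma, 6 at an unadjusted p under 0.05). Over all features 0.737% were called for Irf5-KO minus WT, 4.58% for Lyn-KO minus WT, 6.78% for DKO minus WT, 5.35% for DKO minus Irf5-KO and 0.163% for DKO minus Lyn-KO. The 2 largest of the 6 values belonged to Tlr12, which was at 3.51 ± 0.16 in DKO cells, 3.02 ± 0.07 in Irf5-KO cells, 3.25 ± 0.04 in Lyn-KO cells and 3.1 ± 0.09 in WT cells (SD, n = 3 each). The difference was 0.50 ± 0.15 for DKO minus Irf5-KO (adjusted p = 0.0632) and 0.41 ± 0.15 for DKO minus WT (adjusted p = 0.118). The other 4 were 0.23 for Tlr13 in DKO minus Lyn-KO, 0.20 for Tlr7 in DKO minus Irf5-KO, 0.15 for Unc93b1 in DKO minus WT and 0.13 for Tlr9 in Lyn-KO minus WT. The Tlr13 groups behind these values stood at 3.05 ± 0.22 in DKO, 3.08 ± 0.11 in Irf5-KO, 2.82 ± 0.16 in Lyn-KO cells and 2.93 ± 0.10 in WT cells. The call for Tlr12 in DKO minus Irf5-KO changed with the fit: quantile normalisation gave 0.52 (adjusted p = 0.036).

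With CpG-B the genotypes came apart. Of the 30 values of the 6 members other than Tlr8 and Tlr11, 16 were called, 8 of them at least 2-fold. Among the 16, Tlr3 in DKO minus WT rests in part on spots below background. Of these 6 members, 2 were called for Irf5-KO minus WT (25.5% of all features called), 4 for Lyn-KO minus WT (25.2%), 5 for DKO minus WT (44.8%), 3 for DKO minus Irf5-KO (33%) and 2 for DKO minus Lyn-KO (31.5%). The counts for Irf5-KO minus WT and DKO minus Lyn-KO were near the share of all features. The comparisons of the 3 mutants with WT share the same WT arrays. Only Tlr12 was called in all 5 comparisons.

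Tlr12 stood at 0.82 ± 0.13 in DKO cells with CpG-B, -1.03 ± 0.24 in Irf5-KO cells, 3.23 ± 0.23 in Lyn-KO cells and 1.93 ± 0.34 in WT cells (SD, n = 3 each). From high to low the order was Lyn-KO, WT, DKO and Irf5-KO, and no neighbouring groups overlapped. It was 7.76-fold lower in Irf5-KO than in WT cells (-2.96 ± 0.15, adjusted p = 6.5e-11; -3.11, -3.16 and -2.60 within the 3 slides). Each single mutant thus departed from WT in its own direction. Tlr12 was 2.47-fold higher in Lyn-KO than in WT cells (1.30 ± 0.15, adjusted p = 2.8e-06; 1.19, 1.18 and 1.55 within slides). It was 2.15-fold lower in DKO than in WT cells (-1.11 ± 0.15, adjusted p = 6.2e-06; -1.53, -1.14 and -0.64 within slides). The double mutant lay between the single mutants. It was 3.60-fold above Irf5-KO (1.85 ± 0.15, adjusted p = 2.4e-08) and 5.32-fold below Lyn-KO cells (-2.41 ± 0.15, adjusted p = 6.0e-10).

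Tlr13 stood at 1.66 ± 0.19 in DKO cells with CpG-B, 1.70 ± 0.09 in Irf5-KO cells, 0.62 ± 0.05 in Lyn-KO cells and 0.63 ± 0.05 in WT cells (SD, n = 3 each). The 4 groups formed an upper pair of DKO and Irf5-KO cells and a lower pair of Lyn-KO and WT cells, and the pairs did not overlap. It was 2.10-fold higher in Irf5-KO than in WT cells (1.07 ± 0.11, adjusted p = 5.3e-07; 1.04, 1.17 and 0.99 within slides). It was 2.04-fold higher in DKO than in WT cells (1.03 ± 0.11, adjusted p = 2.8e-07; 1.23, 1.09 and 0.77 within slides) and 2.07-fold higher in DKO than in Lyn-KO cells (1.05 ± 0.11, adjusted p = 4.2e-07). Within each pair the difference was smaller than the spread between replicates, at -0.04 ± 0.11 for DKO minus Irf5-KO (adjusted p = 0.818) and -0.02 ± 0.11 for Lyn-KO minus WT (adjusted p = 0.927).

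**Figure D3:**
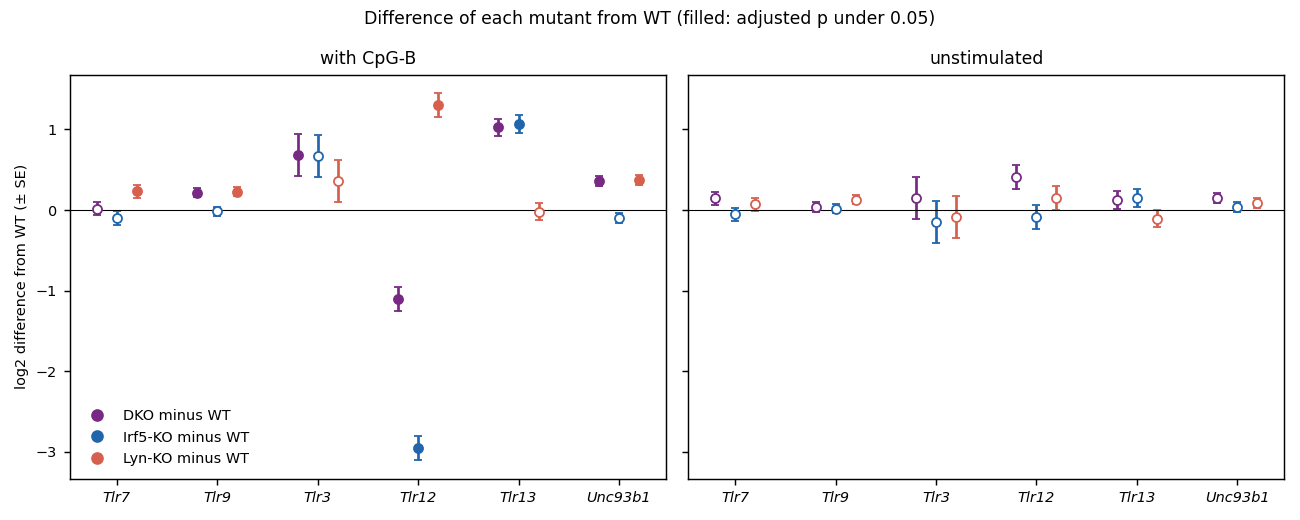
Mutant minus WT difference (y axis, log2 ± SE of the fit) of the 6 members other than Tlr8 and Tlr11, with CpG-B on the left and unstimulated on the right; filled symbols have an adjusted p under 0.05. Tlr3 with CpG-B was above background on 2 of 3 DKO arrays and 1 of 3 WT arrays. With CpG-B, Tlr12 lies at -1.11, -2.96 and 1.30 in DKO, Irf5-KO and Lyn-KO cells and Tlr13 at 1.03, 1.07 and -0.02; no unstimulated difference is filled.

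Smaller differences with CpG-B accompanied the loss of Lyn in Unc93b1 and in Tlr9. Unc93b1 was 5.97 ± 0.08 in DKO, 5.51 ± 0.09 in Irf5-KO, 5.98 ± 0.10 in Lyn-KO cells and 5.61 ± 0.11 in WT cells (SD, n = 3 each). The groups without Lyn lay above both groups with it, by 0.47 ± 0.06 for DKO minus Irf5-KO (adjusted p = 9.4e-06), 0.37 ± 0.06 for DKO minus WT (adjusted p = 7.8e-05) and 0.37 ± 0.06 for Lyn-KO minus WT (adjusted p = 0.00019). Irf5-KO minus WT was -0.10 ± 0.06 (adjusted p = 0.275) and DKO minus Lyn-KO was -0.0018 ± 0.06 (adjusted p = 0.988). Tlr9 had the same order of groups, at 2.95 ± 0.02 in DKO, 2.72 ± 0.08 in Irf5-KO, 2.96 ± 0.03 in Lyn-KO cells and 2.73 ± 0.08 in WT cells. It was higher by 0.23 ± 0.06 in DKO than in Irf5-KO (adjusted p = 0.0041), by 0.22 ± 0.06 in DKO than in WT (adjusted p = 0.0049) and by 0.23 ± 0.06 in Lyn-KO than in WT cells (adjusted p = 0.0063). The first and last of these calls were lost with normexp correction and quantile normalisation (adjusted p = 0.0644 and 0.0605) and in fits restricted to the groups compared (0.0528 and 0.0615). Tlr7 was higher in Lyn-KO than in WT cells by 0.23 ± 0.08 (adjusted p = 0.0434), but its second probe gave 0.22 ± 0.09 (adjusted p = 0.0804). For DKO minus Irf5-KO the first Tlr7 probe gave 0.12 ± 0.08 (adjusted p = 0.31) and the second 0.24 ± 0.09 (adjusted p = 0.0466), so the probes disagreed on both calls. The first probe gave 0.02 ± 0.08 for DKO minus WT (adjusted p = 0.892) and -0.22 ± 0.08 for DKO minus Lyn-KO (adjusted p = 0.0514). The DKO minus Lyn-KO value was called in 12 of 36 alternative fits. For the same comparisons the second probe gave 0.16 ± 0.09 (adjusted p = 0.148) and -0.06 ± 0.09 (adjusted p = 0.701). The Tlr3 signal differed by 0.68 ± 0.26 between DKO and WT cells (adjusted p = 0.0411; 1.37, 0.11 and 0.56 within slides), with 1 of 3 DKO arrays and 2 of 3 WT arrays below background, so its size is not measured. Without WT replicate 1 with CpG-B the value was 0.28 (adjusted p = 0.308).

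Markers of plasmacytoid dendritic cells, which in the mouse are rich in Tlr7, Tlr9 and Tlr12, also differed between the genotypes with CpG-B. Of 20 listed markers, Clec12a, Ly6c2 and Cd300c were not tested. The mean level of the 17 tested markers with CpG-B was 3.81 to 3.90 over the DKO arrays, 2.88 to 3.12 over the Irf5-KO arrays, 4.23 to 4.35 over the Lyn-KO arrays and 3.49 to 3.77 over the WT arrays. Unstimulated it was 3.89 to 3.90 in DKO, 3.48 to 3.66 in Irf5-KO, 3.88 to 4.06 in Lyn-KO cells and 3.61 to 3.72 in WT cells. The Irf5-KO arrays with CpG-B were thus the lowest and the Lyn-KO arrays with CpG-B the highest of the 8 groups for this list, as for Tlr12 among the groups with CpG-B. DKO and WT stood the other way round: every DKO array lay above every WT array for the list, while Tlr12 was lower in DKO. For Irf5-KO minus WT with CpG-B, 0 markers rose and 7 fell, among them the kallikrein Klk1 (-3.14 ± 0.20) and the chemokine receptor Ccr9 (-1.68 ± 0.14). For Lyn-KO minus WT 13 rose and 0 fell, and for DKO minus WT 11 rose and 4 fell. Over all features with CpG-B, 25.5% were called for Irf5-KO minus WT, 25.2% for Lyn-KO minus WT and 44.8% for DKO minus WT. Siglech, a lectin that defines the cell type, differed from WT by 0.15 ± 0.12 in DKO (adjusted p = 0.36), 0.03 ± 0.12 in Irf5-KO (adjusted p = 0.916) and 0.24 ± 0.12 in Lyn-KO cells (adjusted p = 0.174). Markers of B lineage cells differed between genotypes in both conditions, with 0 of 13 higher and 11 lower in DKO, 5 higher and 0 lower in Irf5-KO, and 0 higher and 7 lower in Lyn-KO than in WT cells with CpG-B. The mean level of 13 such markers with CpG-B was -1.10 to -0.69 in DKO, 1.13 to 1.46 in Irf5-KO, -0.78 to -0.51 in Lyn-KO cells and 0.82 to 1.07 in WT cells. Unstimulated, where no difference of Unc93b1 or Tlr9 was called, 0 were higher and 12 lower in DKO (median -2.56), 1 and 0 in Irf5-KO, and 0 and 11 in Lyn-KO than in WT cells (median -2.65). Over all features 6.78%, 0.737% and 4.58% were called in the same unstimulated comparisons. Of 12 markers of monocytes and macrophages, 4 were higher and 0 lower in DKO than in WT cells with CpG-B, where 44.8% of all features were called. In Irf5-KO cells 6 were higher and 0 lower (25.5%), and in Lyn-KO cells 1 and 1 (25.2%). Tlr13 was higher in DKO and Irf5-KO cells, but the share of markers called was above that of all features only in Irf5-KO cells. The mean level of these 12 markers with CpG-B was 0.69 to 1.13 in DKO, 1.07 to 1.36 in Irf5-KO, 0.34 to 0.47 in Lyn-KO cells and 0.48 to 0.74 in WT cells. The part of any of these cell types in the genotype differences was not tested.

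The response to CpG-B itself differed from that of WT in 6 of 21 values, by a test of the difference between the responses. The 21 include values of Tlr11, which was below background on every array with CpG-B, and none of those was called. Of 7 members, 2 were called for Irf5-KO (12.6% of all features called), 2 for Lyn-KO (11.1%) and 2 for DKO cells (30.5%). The DKO count was near the share of all features. The fall of Tlr12 was deeper than in WT, with a difference in response of -2.87 ± 0.21 in Irf5-KO (adjusted p = 3.8e-08) and of -1.52 ± 0.21 in DKO cells (adjusted p = 1.9e-05). In Lyn-KO cells the response was 1.16 ± 0.21 above that of WT (adjusted p = 0.0011). The fall of Tlr13 was shallower than in WT by 0.92 ± 0.15 in Irf5-KO (adjusted p = 0.00036) and by 0.90 ± 0.15 in DKO cells (adjusted p = 0.00015). For Unc93b1 the response of Lyn-KO cells lay 0.28 ± 0.09 above that of WT (adjusted p = 0.0437), and that of DKO cells 0.22 ± 0.09 above it (adjusted p = 0.0694). The Unc93b1 call was made in 15 of 35 alternative fits.

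Whether the effect of losing Lyn depended on Irf5 was tested as the difference between DKO minus Irf5-KO and Lyn-KO minus WT. No member passed by limma, unstimulated (0.0841% of all features called) or with CpG-B (3.61%), and 1 of 14 values had an unadjusted p under 0.05. That value was Tlr12 with CpG-B, where the loss of Lyn was accompanied by a difference of 1.85 between DKO and Irf5-KO cells and of 1.30 between Lyn-KO and WT cells. The difference of these differences was 0.54 ± 0.21 (adjusted p = 0.19). For Tlr13 both differences were near 0, at -0.04 and -0.02. Among the 14 values, that of Tlr11 with CpG-B rests on spots below background and was not called.

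Other genes traced the pattern of Tlr12 and of Tlr13 over the arrays. By Pearson correlation of the log2 levels over the 24 arrays, the named genes most like Tlr12 were Slc35c2, a member of a family of nucleotide sugar transporters (r = 0.988), Pld4, a lysosomal exonuclease for single-stranded nucleic acids (r = 0.982), and Klra17, a lectin-like receptor of the Ly49 family (r = 0.980). With the mean of each treatment taken off, Srgap3, a protein of the Slit and Robo signalling pathway, came first (r = 0.991). Pld4 and Slc35c2 followed at 0.980 each. These values describe 24 points that share 8 groups and 3 slides. Relative to unstimulated WT cells, the mean level of Pld4 with CpG-B was -1.65 in DKO, -2.70 in Irf5-KO, 0.33 in Lyn-KO cells and -0.52 in WT cells. That of Srgap3 was -1.49, -3.18, 0.74 and -0.51 in the same genotypes. Both genes ranked these groups as Tlr12 did, which follows from their choice by correlation with Tlr12 over these arrays.

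The genes most like Tlr13 were Cpt1a, which imports fatty acids into mitochondria (r = 0.993), Cyp4v3, a cytochrome P450 (r = 0.991), and Fkbp2, a peptidyl-prolyl isomerase of the endoplasmic reticulum (r = 0.990). With treatment means taken off, Cdc42ep4, an effector of the GTPase Cdc42, had the highest r (0.967), ahead of Cyp4v3 (0.958) and Cpt1a (0.953). Cpt1a with CpG-B stood at -0.97 in DKO, -0.98 in Irf5-KO, -1.70 in Lyn-KO cells and -1.77 in WT cells relative to unstimulated WT cells. Cpt1a was picked for its correlation with Tlr13 over these arrays, so sharing the upper and lower pairs of Tlr13 follows from that choice. Tlr12 and Tlr13 correlated at 0.36 over the plain levels and at -0.81 with treatment means taken off.

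**Figure D4:**
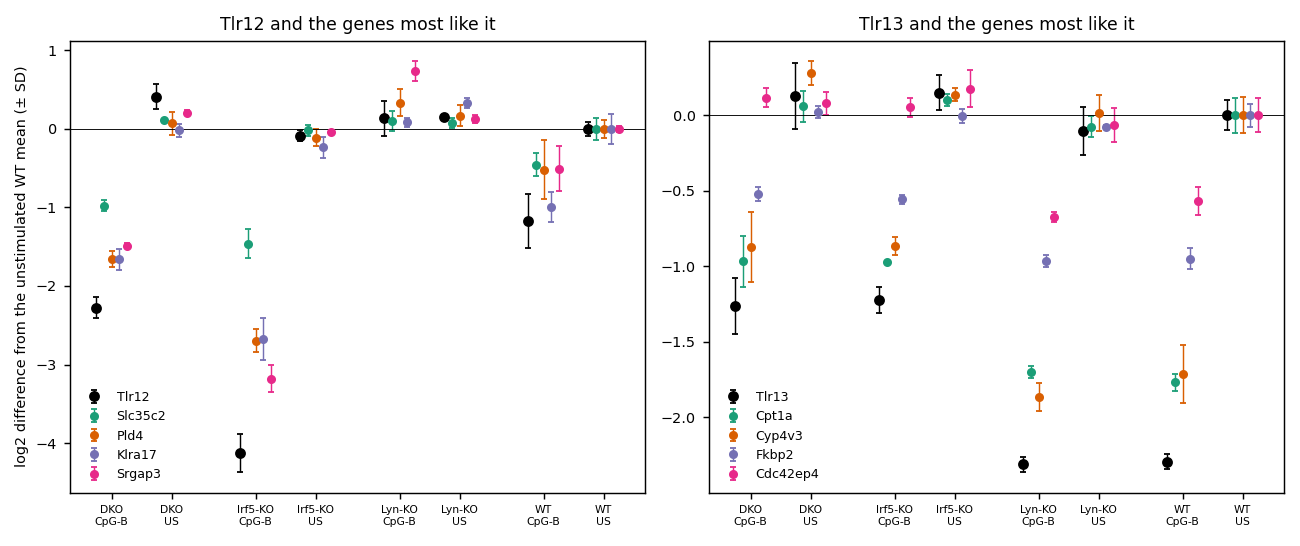
Group means (y axis, log2 level minus that of unstimulated WT cells, ± SD over 3 arrays) of Tlr12 with Slc35c2, Pld4, Klra17 and Srgap3, and of Tlr13 with Cpt1a, Cyp4v3, Fkbp2 and Cdc42ep4. With CpG-B the genes of the Tlr12 panel are lowest in Irf5-KO and highest in Lyn-KO cells, and those of the Tlr13 panel are higher in DKO and Irf5-KO than in Lyn-KO cells and WT cells. The genes beside Tlr12 and Tlr13 were picked for their correlation with them over the same arrays.

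For the other receptors the highest r dropped once treatment means were taken off. Tlr7 was most like Alas1, Max and Ass1 (r = 0.989, 0.989 and 0.988), and Tlr9 was most like Mob3a, Tnfsf15 and Ifna2 (r = 0.981, 0.980 and 0.979). Tlr3 was most like Tlr11 (r = 0.977), itself below background with CpG-B, and no likeness is given for Tlr11 for the same reason. With treatment means off, the highest r was 0.912 for Tlr9 (Lgals1), 0.810 for Tlr7 (Wfs1) and 0.793 for Tlr3 (Rnf41). The values for Tlr3 rest in part on spots below background, since 1 of 3 WT arrays and 2 of 3 DKO arrays with CpG-B measured it. Among WT arrays with CpG-B the SD was 0.70 for Tlr3 and 0.62 for Rnf41, against 0.12 or less for Rnf41 in every other group. Unc93b1 was the exception, with a higher r once treatment means were off (0.934 for both Cib1 and Il1r1) than over the plain levels (0.899, Gm5617).

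Genes that fold, move or cut endosomal Toll-like receptors, or clear their ligands, were read as a list of 20, of which 17 were tested (Tasl, Rnaset2b and Lamp5 were not). In WT cells 4 rose and 7 fell with CpG-B, with a median of -0.03, so 11 of 17 were called where 68.5% of all features were, a share near the background. Lgmn, a lysosomal protease that cuts Tlr9, rose by 1.33 ± 0.06 (adjusted p = 1.1e-13), and Ap3b1, a subunit of the adaptor complex that sorts Tlr9 to lysosome-related organelles, rose by 0.99 ± 0.05 (adjusted p = 1.3e-12). Among the falls were Hmgb1, a DNA-binding protein (-1.18 ± 0.19, adjusted p = 1.4e-05), the exonuclease Pld3 (-1.02 ± 0.13, adjusted p = 1.4e-06) and Slc15a4, an endolysosomal transporter needed for Tlr7 and Tlr9 signals (-0.85 ± 0.08, adjusted p = 8.3e-09). The folding proteins Hsp90b1 (0.07 ± 0.09, adjusted p = 0.508) and Cnpy3 (0.02 ± 0.06, adjusted p = 0.843) did not pass. In the other genotypes 5 rose and 7 fell in DKO, 5 and 7 in Irf5-KO, and 6 and 6 in Lyn-KO cells. Over all features 70.5%, 66.8% and 68.9% were called in these responses.

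Between genotypes with CpG-B, 9 genes of that list were higher and 3 lower in DKO than in WT cells, 6 higher and 4 lower in Irf5-KO, and 5 higher and 3 lower in Lyn-KO, with medians of 0.18, 0.14 and 0.06. Over all features 44.8%, 25.5% and 25.2% were called, and the medians were 0.06, 0.02 and 0.05. Pld4, also a plasmacytoid marker, differed from WT by -1.13 ± 0.14 in DKO (adjusted p = 3.3e-06), by -2.18 ± 0.14 in Irf5-KO (adjusted p = 2.5e-09) and by 0.86 ± 0.14 in Lyn-KO cells (adjusted p = 0.0002). Slc15a4 was above WT in all 3 mutants, by 0.86 ± 0.08 in DKO, 0.38 ± 0.08 in Irf5-KO and 0.41 ± 0.08 in Lyn-KO cells (adjusted p = 3.0e-08, 0.00096 and 0.00045). Lgmn differed from WT by 0.34 ± 0.06 in Irf5-KO (adjusted p = 0.00015) and by -0.52 ± 0.06 in Lyn-KO cells (adjusted p = 1.3e-06). Atp6v0d2, a subunit of the proton pump that acidifies endosomes, was higher by 2.15 ± 0.34 in DKO (adjusted p = 4.5e-05) and by 1.87 ± 0.34 in Lyn-KO cells (adjusted p = 0.00047). Unstimulated, 4 genes of the list were higher and 1 lower in DKO than in WT cells (6.78% of all features called). In Irf5-KO 0 were called (0.737%), and in Lyn-KO cells 2 were higher and 0 lower (4.58%).

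Downstream of the receptors, 17 of 18 adaptors and kinases were tested (Sarm1 was not). With CpG-B 10 rose and 6 fell in WT cells, with a median of 0.53, where 68.5% of all features were called. Myd88, the shared adaptor, rose by 1.97 ± 0.06 (adjusted p = 2.3e-15), Ticam1, the adaptor of Tlr3, by 0.98 ± 0.07 (adjusted p = 1.1e-10) and the kinase Ikbke by 3.29 ± 0.28 (adjusted p = 4.1e-09). The adaptor Tirap fell by 1.33 ± 0.05 (adjusted p = 5.5e-14) and the kinase Irak1 fell by 0.91 ± 0.07 (adjusted p = 3.7e-10). Between genotypes with CpG-B, 9 were higher and 2 lower in DKO, 4 and 2 in Irf5-KO, and 3 and 2 in Lyn-KO than in WT cells. Over all features 44.8%, 25.5% and 25.2% were called in the same comparisons, and the Lyn-KO count was near that share. Irak3, an inhibitor of the pathway, differed from WT by 0.49 ± 0.12 in DKO (adjusted p = 0.0028), by 0.97 ± 0.12 in Irf5-KO (adjusted p = 7.6e-06) and by -0.54 ± 0.12 in Lyn-KO cells (adjusted p = 0.0025). Myd88 was higher by 0.35 ± 0.06 in DKO (adjusted p = 0.00021) and by 0.33 ± 0.06 in Irf5-KO cells (adjusted p = 0.00067).

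Of 6 interferon regulatory factors linked to these receptors, 4 rose and 2 fell with CpG-B in WT cells, where 68.5% of all features were called. Irf7, which drives type I interferon genes, rose by 5.90 ± 0.20 (adjusted p = 4.1e-15) and differed from WT by 0.19 ± 0.20 or less in each mutant with CpG-B (adjusted p = 0.47 or more). Irf8, a factor of plasmacytoid and type 1 conventional dendritic cells, fell by 0.76 ± 0.09 (adjusted p = 4.4e-07). With CpG-B it differed from WT by 0.16 ± 0.09 in DKO (adjusted p = 0.181), by -1.50 ± 0.09 in Irf5-KO (adjusted p = 8.1e-10) and by 0.81 ± 0.09 in Lyn-KO cells (adjusted p = 2.4e-06). Of these 6 factors, the targeted Irf5 included, 2 were higher and 2 lower in DKO, 1 and 2 in Irf5-KO, and 2 and 1 in Lyn-KO than in WT cells with CpG-B. Over all features 44.8%, 25.5% and 25.2% were called in the same comparisons. Cell surface Toll-like receptors and their partners gave 3 rises and 5 falls among 9 tested in WT cells (Tlr5 was not tested). Ly96, the partner of Tlr4, rose by 2.68 ± 0.11 and Tlr4, the receptor for lipopolysaccharide, fell by 2.27 ± 0.40 (adjusted p = 1.1e-13 and 5.1e-05). With CpG-B, 6 were higher and 2 lower in DKO, 5 and 0 in Irf5-KO, and 2 and 0 in Lyn-KO than in WT cells, led by the scavenger receptor Cd36 (3.50 ± 0.19, 1.72 ± 0.19 and 0.99 ± 0.19). For Lyn-KO minus WT the 2 of 9 called were near the 25.2% of all features.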

How the data were processed

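Levels of 24 arrays of Agilent's mouse design were read from the scanner files. Per the file headers, Feature Extraction 10.7.3.1 produced them, and the deposited intensity (the processed signal of a 1-colour Cy3 array, background-subtracted) was used. Control spots and 4351 flagged spot values were dropped, repeated spots of the same probe were averaged, and log2 was taken minus each array's 75th percentile (303 to 568 signal units). A probe stayed in when well above background on all 3 arrays of some group (26642 of 55681 probes), and the probe with the highest mean stood for its gene. Names came from RefSeq accessions (26762 probes named, GRCm38.p6, names only). The series table deposited by the authors holds log2 values, centred to a median of 0 per probe, with array medians from -0.27 to 0.38. It matched the scanner values within 0.0238 for 95% of values over 17018 bright probes and served as an alternative.

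A mean per group was fitted over 20210 features with limma 3.58.1 in R 4.3.3 (lmFit and eBayes, 19 contrasts, 2-sided, Benjamini-Hochberg within a contrast, called at adjusted p under 0.05). Data were simulated for Lyn-KO minus WT with CpG-B over 20210 features, with 50 features changed by each amount. There 60% of log2 changes of 0.5, 92% of 1 and 96% of 2 were called. In the real data 5084 features were called for that comparison, so these shares need not hold for it or for the responses. The number of arrays, 3 per group, limits the precision. Alternatives changed normalisation, background correction, scaling, filters, probe choice, variance prior, arrays and a replicate block. Named genes are the members, Lyn and Irf5, the called genes of the gene lists with the largest changes, defining genes of those lists, and for each member measured with CpG-B the 3 most correlated genes. Hsp90b1, Cnpy3, Siglech, Ticam1 and genes repeated across comparisons were chosen after their values were seen. The members and lists were chosen with earlier results of these data known.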

Additional observations from a re-analysis of the deposited data

Results flagged for a closer look

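In 6 cases the response to CpG-B differed between a mutant and WT by the test of the difference between the responses (limma, adjusted over all 20210 features). All are log2 differences, mutant response minus WT response. For Tlr12 the value was -2.87 in Irf5-KO cells (-3.00, -2.94 and -2.68 within the 3 slides), 1.16 in Lyn-KO cells (1.07, 1.12 and 1.29) and -1.52 in DKO cells (-1.87, -1.63 and -1.05). For Tlr13 it was 0.92 in Irf5-KO cells (0.89, 0.96 and 0.91) and 0.90 in DKO cells (1.04, 0.78 and 0.89). For Unc93b1 it was 0.28 in Lyn-KO cells (0.11, 0.25 and 0.49). Each of the 6 had the same sign in all 3 slides. The share of all features called in the same comparisons was 12.6% for Irf5-KO, 11.1% for Lyn-KO and 30.5% for DKO cells. For DKO cells the number of members called, 2 of 7, was near that share.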

How the results depend on the processing

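Under alternatives other than leaving out arrays, 492 of 513 recomputed values of called members kept their direction and call, 21 lost the call and 0 reversed. Leaving out each array in turn, 1096 of 1128 kept it and 32 lost it. Many of these fits left out an array outside the groups compared. Such a fit cannot change the log2 difference, only its adjusted p, and it counts among the alternatives wherever their number is given. The Tlr12 and Tlr13 calls held in all 35 alternatives of each. The count of called responses was 25 (24 to 25 without an array), that of genotype differences with CpG-B 16 (14 to 17), that of differences in response 6 (5 to 7), and that of Irf5 dependence 0 throughout. Calls of at least 2-fold numbered 8 with CpG-B and 3 for the differences in response. Unstimulated, the count of 0 became 1 under quantile normalisation, normexp with quantile normalisation, the prior with trend and robust estimation, only the groups of the contrast, and the replicate block (0 to 1 without an array). The call was Tlr7 in DKO minus Irf5-KO (0.20) under the replicate block, and Tlr12 in DKO minus Irf5-KO (0.50 to 0.52) under the others. The responses that reversed and were called were those of Unc93b1, which in Lyn-KO cells was -0.27 (quantile) and -0.25 (normexp), and in DKO cells -0.45 and -0.39; the cause was not tested. No scaling moved the median of all features by as much as 0.1. Normexp used the median spot signal with an added offset of 50 signal units, which by itself makes changes of dim probes smaller. It left smaller falls of Tlr3 (-0.88 to -1.20) and Tlr11 (-2.68 to -3.00). Tlr7 in Lyn-KO minus WT with CpG-B was called in 18 of 36 alternatives, and Tlr3 in DKO minus WT in 26 of 34.

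Same-numbered arrays of different groups deviated together more than others did. Their residuals correlated at a median of 0.055 (-0.084 to 0.293, 25 of 84 pairs over 0.1). For arrays of different number the median was -0.030 (-0.273 to 0.125, 2 of 168 pairs over 0.1). Of 24 arrays, 22 correlated best with their own number, which is also their slide. The main fit held no term for the slide. The replicate block left 25 responses called and gave 18 genotype differences with CpG-B. It added Tlr7 in DKO minus Lyn-KO (-0.22 by its first probe, adjusted p = 0.0046) and Tlr3 in Irf5-KO minus WT (0.67, adjusted p = 0.0391, 1 of 3 WT arrays above background). The second Tlr7 probe gave -0.06 for DKO minus Lyn-KO without the block (adjusted p = 0.701).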

Other observations

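Of 11 neutrophil markers tested with CpG-B, 1 was higher and 9 lower in DKO than in WT cells (44.8% of all features called), 0 and 1 in Irf5-KO (25.5%), and 1 and 4 in Lyn-KO cells (25.2%). Their mean level with CpG-B was -0.91 to -0.02 in DKO, 0.19 to 0.44 in Irf5-KO, -0.41 to -0.38 in Lyn-KO and 0.29 to 0.49 in WT cells. The transcription factor Irf4 differed from WT with CpG-B by -1.31 ± 0.10 in DKO (adjusted p = 3.0e-09), by -0.41 ± 0.10 in Irf5-KO (adjusted p = 0.0038) and by -0.64 ± 0.10 in Lyn-KO cells (adjusted p = 6.8e-05). The Irf5 probe itself was higher with CpG-B in DKO than in WT cells by 1.09 ± 0.09 (adjusted p = 1.2e-08).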
